A study of Oryctolagus cuniculus with 12 samples.

Results

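Complement is the set of blood plasma proteins that tags cells and microbes and can end by piercing their membranes. C8A, C8B and C8G encode the alpha, beta and gamma chains of complement component C8, C9 encodes the subunit that joins C8 and polymerises into the pore of the membrane attack complex, and CR1 encodes the receptor for the tags C3b and C4b. These 5 genes, of 591 named on a rabbit array, were chosen with earlier results of these data known. The array annotation gives 7 of its 43603 probes 1 of these symbols. C9 had 3 named probes and the other 4 genes had 1 named probe each. Of the 7 probes, 6 were matched to the current gene through their transcript accession, and the CR1 probe was matched through its symbol.

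The arrays measured RNA of 12 ventricles of fetal rabbit hearts. Of these, 6 came from fetuses with intrauterine growth restriction (IUGR), the failure of a fetus to reach its normal size, and their sample titles read treatment. They were set against 6 control hearts, and by the labels each IUGR heart has a control partner, which makes 6 pairs. The sources used here do not give the nature of the treatment, what a pair shares, or the strain, age and sex of the fetuses, so growth restriction and any other effect of the treatment cannot be told apart. No label says that the samples came from separate litters, and p-values then measure only the spread between these samples.

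In most mammals the liver makes the bulk of C8 and C9 and releases them into plasma, so heart muscle is not their main source. The C8 chains differ in kind: alpha and beta belong with C9 to the family of pore-forming complement proteins, whereas gamma is a lipocalin, a small carrier protein bound to alpha. CR1 holds immune complexes on human red cells and acts on leukocytes, and it helps the inactivation of C3b and C4b. In the RefSeq annotation of the rabbit assembly mOryCun1.1, C8B and C8A are adjacent protein-coding genes. CR1 lies between CR2 and CD46 there, 2 other genes of receptors or regulators that bind C3 fragments. C8G lies beside LCN12, also a lipocalin gene, and C9 lies between FYB1 and DAB2. CR2 and CD46 had no named probe.

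Signals are given as deposited, on a log2 scale, and the median of the probe means was 4.61. The heart muscle markers MYH6, RYR2 and CKM stood at percentiles 99.2, 97.4 and 99.8 of the probe means, and the other 13 of the 16 markers listed for ventricular muscle had no named probe. Of 6 lung markers listed, 2 had a named probe. SFTPB stood at percentile 93.3, with its highest value, 12.51, in control replicate 1, and SCGB1A1 stood at percentile 31.8. The source of the SFTPB signal was not tested. Of the 7 member probes, 6 lay below the median probe. On each array 11337 to 12067 probes had values from 2 to 3 log2, and they shared only 23 to 40 distinct values, so the dim signals come in steps. A probe's place among the probe means describes its signal and does not rank amounts of RNA between genes.

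None of the 5 genes passed the test for a difference between IUGR and control ventricles. Differences below are IUGR minus control in log2 units, and intervals are 95% confidence intervals from limma with the pair as a block. Of the 7 probes, 0 had a limma p under 0.05 after Benjamini-Hochberg adjustment over all probes, against 0% of the 43603 probes. At an unadjusted p under 0.05 there were also 0 of 7, against 3.58% of all probes. The brightest probe of each gene was lower in IUGR for 3 genes and higher for 2, with a median difference of -0.08, beside a median of 0.01 over all probes. In every gene the IUGR and control values overlapped, as they did for all but 0.0505% of the probes. In whole tissue, fewer cells of a type and less RNA per cell cannot be told apart.

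**Figure D1:**
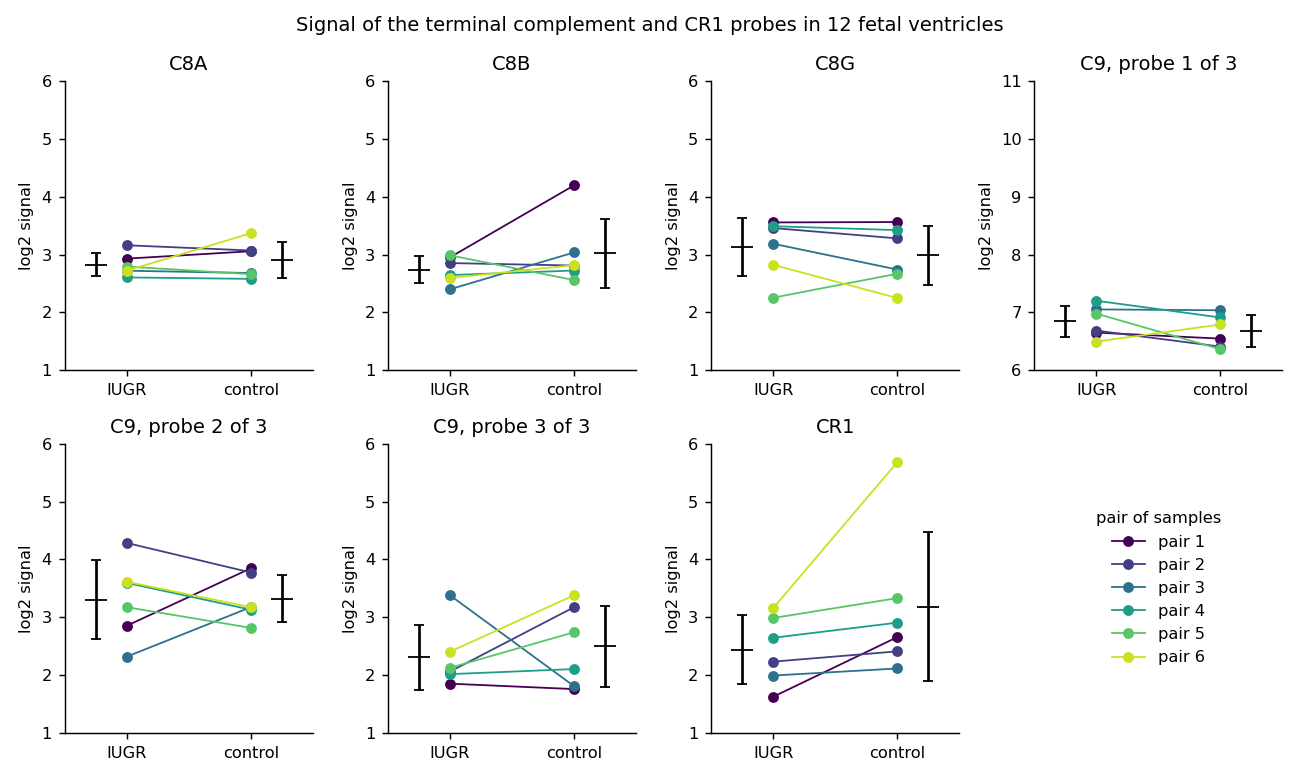
Log2 signal of each of the 7 probes in the IUGR ventricles (left) and control ventricles (right), 1 line per pair, with the mean and SD of 6 hearts as black bars. Every panel spans the same number of log2 units. The C8A, C8B and C8G probes and 2 of the C9 probes stay low and cross between groups, and CR1 slopes upward toward the control heart in all 6 pairs, most steeply in pair 6.

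C8A, the chain of C8 that enters the membrane, had a dim probe at percentile 24.2 of the probe means. Its signal ran from 2.60 to 3.16 with a median of 2.76 in IUGR ventricles, against 2.58 to 3.37 with a median of 2.87 in control ventricles. The highest value was that of control replicate 6, and the other 11 values lay within the range of the IUGR group or just below it. The mean was 2.82 ± 0.20 in IUGR and 2.90 ± 0.31 in control (SD, n = 6 each), a difference of -0.08 with an interval from -0.40 to 0.23 (limma adjusted p = 0.982). As a ratio the interval ran from 0.760 to 1.18, and IUGR was higher in 4 of 6 pairs. Without pair 6 the difference turned to 0.03. C8A was among the steadiest probes of its level, since its SD over the pair differences (0.29) stood at percentile 2.41 among probes of the same decile of mean signal.

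C8B, the chain that docks C8 on the forming complex, had a probe at percentile 24.9. Its signal ran from 2.40 to 2.99 with a median of 2.75 in IUGR, against 2.56 to 4.20 with a median of 2.81 in control. Control replicate 1 stood above the 11 other hearts, which reached at most 3.04. C8B averaged 2.74 ± 0.23 in IUGR and 3.02 ± 0.59 in control (SD, n = 6 each), a difference of -0.29 with an interval from -0.80 to 0.23 (limma adjusted p = 0.982). IUGR hearts were lower in 4 of 6 pairs, and the difference shrank to -0.09 without pair 1. The neighbouring gene C8A did not share the peak: in control replicate 1 it read 3.06, inside its usual range.

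C8G, the lipocalin chain, had a probe at percentile 31.2. Its signal ran from 2.25 to 3.56 with a median of 3.32 in IUGR, against 2.25 to 3.56 with a median of 3.01 in control. The ranges of the groups coincided to the second decimal. The mean was 3.13 ± 0.51 in IUGR and 2.99 ± 0.51 in control (SD, n = 6 each), and the difference of 0.14 had an interval from -0.21 to 0.49 (limma adjusted p = 0.982). It was 0.05 without pair 6, 0.08 without pair 3 and 0.25 without pair 5. C8G differed between pairs much more than between groups: 86.1% of its variance over the 12 arrays lay between pairs and 2.24% between groups, where the medians over all probes were 55.6% and 3.80%. Within each group the hearts of pairs 5 and 6 were the lowest, at 2.25 and 2.82 in IUGR and at 2.67 and 2.25 in control. Control replicate 3, at 2.74, also read below IUGR replicate 6. The pair means were 2.46 in pair 5 and 2.54 in pair 6, against 2.96 to 3.56 in pairs 1 to 4.

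C9, the pore subunit, was the gene with several probes, and they differed widely in signal. The brightest stood at percentile 64.7 and was the sole member probe above the median, while the other 2 probes, annotated to the same transcript, stood at percentiles 37.6 and 3.56. The brightest ran from 6.50 to 7.20 with a median of 6.83 in IUGR, against 6.36 to 7.04 with a median of 6.67 in control. Its mean was 6.84 ± 0.27 in IUGR and 6.68 ± 0.28 in control (SD, n = 6 each), a difference of 0.17 with an interval from -0.16 to 0.49 (limma adjusted p = 0.982). IUGR was higher in 5 of 6 pairs, pair 6 being the exception at -0.30. Without pair 5 the difference was 0.08, and without pair 6 it was 0.26.

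The other C9 probes did not follow the brightest. The middle probe ran from 2.32 to 4.29 with a median of 3.38 in IUGR, against 2.82 to 3.85 with a median of 3.17 in control. It averaged 3.31 ± 0.68 in IUGR and 3.32 ± 0.40 in control (SD, n = 6 each), a difference of -0.01 with an interval from -0.62 to 0.60 (limma adjusted p = 0.998). The dimmest probe ran from 1.85 to 3.38 with a median of 2.09 in IUGR, against 1.76 to 3.38 with a median of 2.42 in control, and the groups overlapped for both probes. The dimmest averaged 2.31 ± 0.56 in IUGR and 2.49 ± 0.70 in control (SD, n = 6 each), a difference of -0.19 with an interval from -1.01 to 0.63 (limma adjusted p = 0.984). Over the 12 arrays, which share pairs, the brightest probe correlated with the middle one at r = -0.28 and with the dimmest at r = -0.17, and the middle with the dimmest at r = -0.35. With the mean of the 3 probes the C9 difference was -0.01. The level of the brightest probe is thus a value of that probe, and the 3 probes gave no common direction.

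CR1, the receptor, had the largest difference of the 5 genes. Its probe, at percentile 22.0, ran from 1.62 to 3.16 with a median of 2.44 in IUGR, against 2.11 to 5.68 with a median of 2.78 in control. Control replicate 6 stood alone at 5.68, and the next highest heart, control replicate 5, read 3.33. The mean was 2.44 ± 0.59 in IUGR and 3.18 ± 1.29 in control (SD, n = 6 each), a difference of -0.74 with an interval from -1.52 to 0.04. In linear signal that is 0.598 of the control level, with an interval from 0.348 to 1.03. When low values were raised to the 25th percentile of their array, the log2 difference was -0.48. The difference missed the threshold (limma adjusted p = 0.982), and its limma p before adjustment ranked 1887 among 43603 probes.

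CR1 was lower in the IUGR heart in 6 of 6 pairs, a pattern that 0.943% of the probes had. None of the 7 probes was higher in 6 of 6 pairs, which held for 1.31% of the table. The pair differences were -1.03 in pair 1, -0.18 in pair 2, -0.12 in pair 3, -0.26 in pair 4, -0.34 in pair 5 and -2.52 in pair 6. The sizes were thus uneven, with 4 of the 6 between -0.12 and -0.34. The exact two-sided test over the 64 sign changes gave its smallest possible value, p = 0.03125, which 983 probes shared. With so coarse a test the adjusted exact p over all probes was 1, which the number of pairs practically fixed. Without pair 6 the difference was -0.39 with an interval from -0.80 to 0.03 (limma adjusted p = 0.945), and the control mean without replicate 6 was 2.68 ± 0.47 (SD, n = 5). Leaving out any other pair gave -0.87 to -0.69. A difference of this size or lower was seen in 1.78% of all probes.

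**Figure D2:**
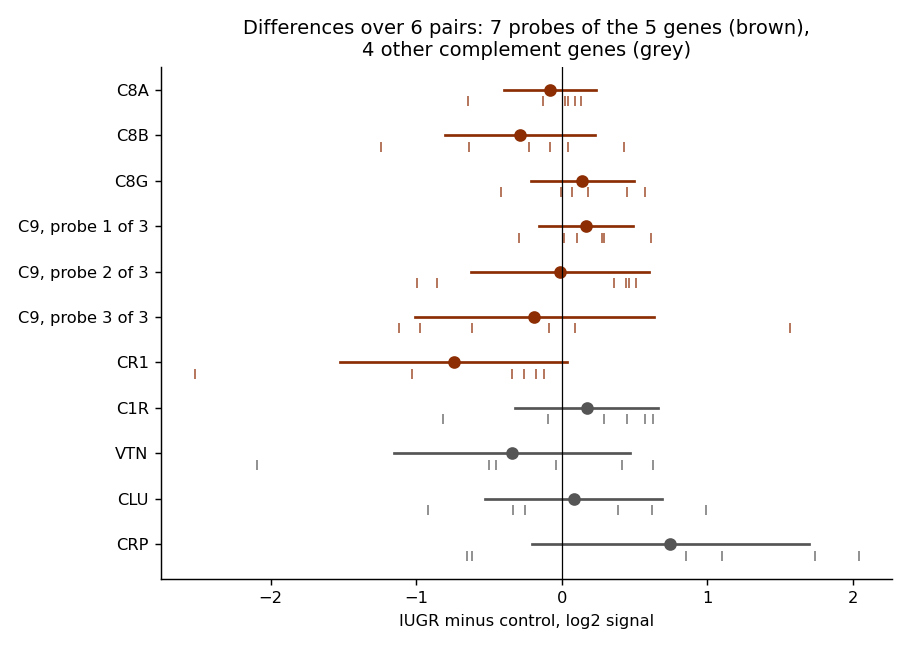
IUGR minus control in log2 signal for the 7 member probes (brown) and 4 other complement genes (grey), with the mean as a point, its 95% confidence interval as a line and the 6 pair differences as ticks below it. All 11 intervals reach across 0, and for CR1 all 6 ticks lie left of 0 with pair 6 far out at -2.52.

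The CR1 signal also varied between pairs. Hearts of pairs 4, 5 and 6 held the 3 highest values in both groups, at 2.64, 2.99 and 3.16 in IUGR and at 2.91, 3.33 and 5.68 in control. Between pairs lay 67.5% of the variance of CR1, and 14.1% lay between groups, where the medians over all probes were 55.6% and 3.80%. The pair share stood at percentile 70.1 among the probes. The value of 5.68 in control replicate 6 enters both shares. The pair means ran from 2.05 in pair 3 to 4.42 in pair 6. Among the 5 genes, taken as 10 combinations over the 12 arrays, Pearson r ran from -0.65 for C8G with CR1 to 0.41 for C8A with CR1, with no p given for values that share pairs. Among the C8 chains and the brightest C9 probe, r ran from -0.36 for C8A with C9 to 0.36 for C8A with C8B, whose products join the same C8 molecule.

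**Figure D3:**
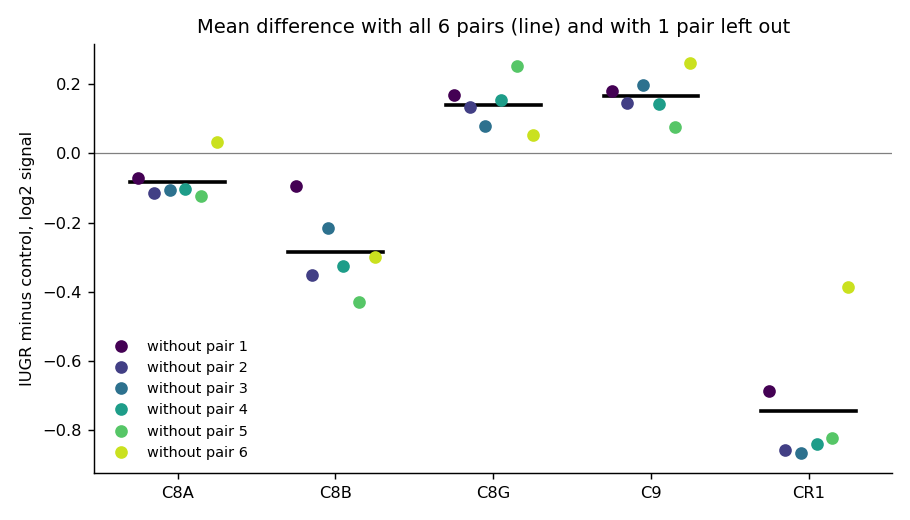
Mean IUGR minus control difference in log2 signal of each gene with all 6 pairs (black line) and with 1 pair left out (points, coloured by the pair left out). C8A crosses 0 without pair 6, C8B moves to -0.09 without pair 1, and CR1 stays below 0 and moves to -0.39 without pair 6.

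Other probes also had 1 array far above the rest. The gap between the highest and the next highest array was 2.35 log2 for CR1, and 1601 probes, 3.67% of all, had a gap at least as wide. Control replicate 6 was the highest array for 143 of them. The counts over the 12 arrays, this one included, ran from 62 to 271. Among the 4360 probes in the decile of mean signal that holds CR1, 458 had such a gap. CR1 has no other named probe by which this value could be compared, and 41930 probes of the array have no name.

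In control replicate 6 several plasma protein genes of the liver were high as well. Of 29 hepatocyte and plasma protein genes listed, 11 had a named probe, and 6 of these 11 had their highest value in that heart: AHSG, TF, SERPINF2, ITIH2, ITIH3 and RBP4. The others peaked elsewhere: APOB and ITIH1 in control replicates 2 and 4, and ITIH4, HPX and HRG in IUGR replicates 4, 5 and 6. In control replicate 6 APOB read 2.66 against 8.07 at its peak, and HRG read 2.82 against 5.21. ITIH4 and HPX had their highest control value there. The share of all probes highest in that heart is not given here. The albumin gene ALB and the alpha-fetoprotein gene AFP had no named probe. The mean signal of the 11 genes ran from 4.17 to 5.43 in IUGR, against 4.41 to 6.38 in control, and the highest value was that of control replicate 6. AHSG, fetuin of plasma, read 11.74 there and at most 10.38 in the other hearts. ITIH3, a chain of an inhibitor family in plasma, read 7.12 there and at most 4.54 elsewhere. The peaks of TF (10.08 against 9.47 in the next highest heart) and RBP4 (7.68 against 7.36) were narrower. The part of these transcripts in the CR1 value was not tested.

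Of the C8 and C9 genes, whose products come chiefly from the liver, C8B, C8G and the brightest C9 probe were not raised in that heart. In control replicate 6, C8B read 2.82 and the brightest C9 probe read 6.79, both within the range of the other hearts, and C8G read 2.25, its lowest value. C8A read 3.37, its highest value, and 3.16 in the next highest heart, IUGR replicate 2. The dimmest C9 probe read 3.38 there and 3.38 in IUGR replicate 3 too. The C8B and C8G probes were dim, at percentiles 24.9 and 31.2, and the brightest C9 probe did not follow the other C9 probes. Whether these probes can report liver RNA was not tested.

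**Figure D4:**
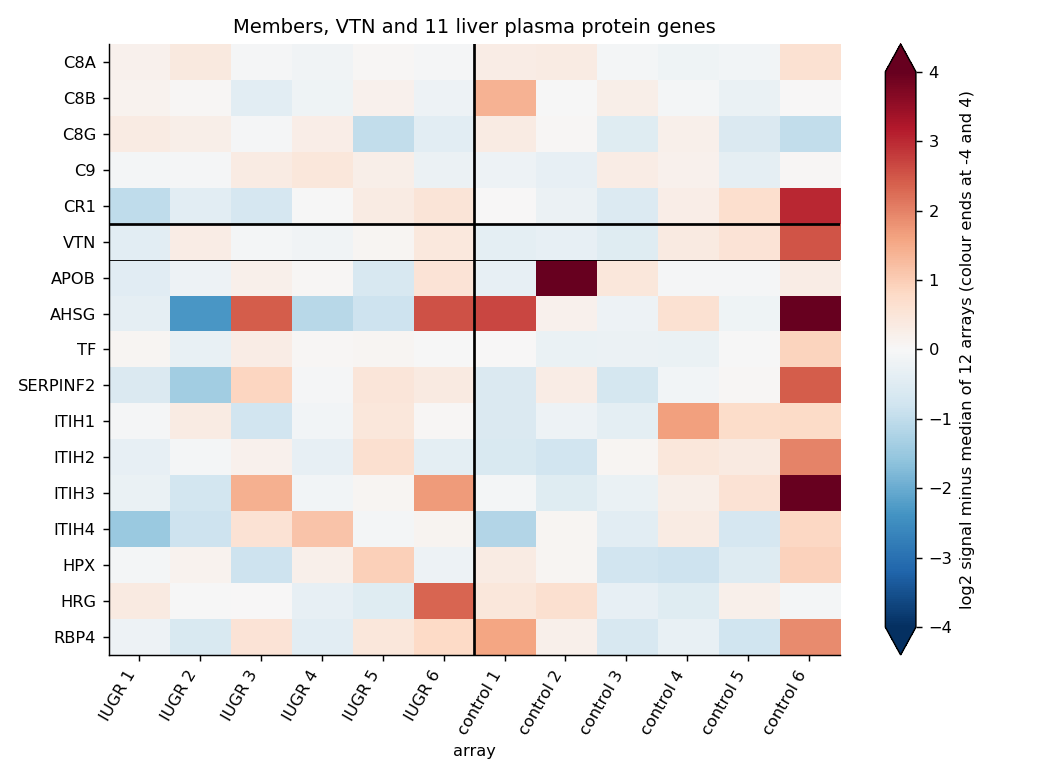
Log2 signal of each gene minus its median over the 12 arrays, for the 5 genes (top), VTN and 11 liver plasma protein genes, with IUGR arrays left and control arrays right of the black line. Red is above the median and blue below it, and the colour stops deepening past the ends of its scale. The column of control replicate 6 is red for CR1, VTN, AHSG and ITIH3, and pale for C8B and C9.

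For blood cells, which carry CR1 in humans, the named marker genes did not peak in control replicate 6. The 3 named red cell genes, HBA, HBB2 and BPGM, had a mean signal of 13.87 to 14.50 in IUGR, against 13.62 to 14.19 in control, and 13.74 in control replicate 6. The 3 named leukocyte genes, CD14, CD3E and CD4, had a mean of 4.91 to 5.72 in IUGR, against 4.88 to 5.93 in control, and 5.39 in control replicate 6. CD3E, a T cell marker, lay at percentile 2.20. The 2 named platelet genes, ITGA2B and ITGB3, averaged 7.27 to 7.94 in IUGR and 7.09 to 7.73 in control, and 7.57 in control replicate 6. None of these 8 genes had its highest value in that heart. The share of all probes highest there is not given, so this count of few genes has no share to be read against. The blood cell content of that heart was not tested.

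Of 51 other complement genes listed, 4 had a named probe, and none passed the adjusted threshold. The brightest probes of C1R, CLU and CRP were higher in IUGR and that of VTN was lower, with a median difference of 0.13. Without pair 2 that median turned to -0.0038, with 2 of the 4 genes higher. C1R, a protease of the first step, differed by 0.17 with an interval from -0.32 to 0.66 (limma adjusted p = 0.982). Without pair 6 it was 0.37, and its other 2 probes gave 0.44 and 0.76. The 3 probes of C1R were dim, at percentiles 28.2 to 37.5. The pair differences of the probe with 0.76 ran from -0.46 to 2.38. CRP, which binds C1q and starts the classical pathway, differed by 0.75 with an interval from -0.21 to 1.70 (limma adjusted p = 0.982), and the mean of its 5 probes gave 0.22. It was 0.49 without pair 4 and 1.03 without pair 6, and 1 of its 5 probes went the other way, at -0.14. The CRP probes were dim too, at percentiles 4.25 to 36.6.

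VTN and CLU encode vitronectin and clusterin, plasma proteins that keep the forming attack complex out of membranes. CLU ran from 5.35 to 6.53 with a median of 6.09 in IUGR, against 4.36 to 6.93 with a median of 6.13 in control, and differed by 0.08 with an interval from -0.53 to 0.69 (limma adjusted p = 0.986). Its sign turned without pair 2 (-0.10) and without pair 6 (-0.02). VTN ran from 2.11 to 2.99 with a median of 2.55 in IUGR, against 2.06 to 5.08 with a median of 2.56 in control. It differed by -0.34 with an interval from -1.15 to 0.47 (limma adjusted p = 0.982), and by 0.01 without pair 6, since control replicate 6 held its highest value, as for CR1. The groups were otherwise interleaved for both genes.

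The genes most like each member were taken as the 3 with the highest Pearson r over the 12 arrays among 586 other named genes, and as the best of many they carry no p. For CR1 they were VTN (r = 0.93, Spearman rho = 0.79), the potassium channel gene KCNB2 (r = 0.92, rho = 0.69) and ITIH3 (r = 0.84, rho = 0.66). All 3 had their highest value in control replicate 6, and without that array and IUGR replicate 1, the 2 farthest from the CR1 median, r was 0.64, 0.53 and 0.31. For C8B they were SFRP2, a secreted Wnt antagonist (r = 0.90, rho = 0.59), PON3, a paraoxonase (r = 0.88, rho = 0.47), and CNMD, the cartilage protein chondromodulin (r = 0.88, rho = 0.52). All 3 peaked in control replicate 1, as C8B did, and r was 0.50, 0.12 and 0.32 without that array and IUGR replicate 3.

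For the brightest C9 probe the most alike genes were CD4, a co-receptor of T cells (r = 0.90, rho = 0.88), PRLR, the prolactin receptor (r = 0.87, rho = 0.87), and GJA5, the gap junction protein connexin 40 (r = 0.85, rho = 0.89), with r of 0.87, 0.78 and 0.81 without the 2 farthest arrays. The brightest C9 probe was highest in pairs 3 and 4, with pair means of 7.04 and 7.06, against 6.55 to 6.67 in the other pairs. For C8G they were FMO5, a flavin monooxygenase (r = 0.87, rho = 0.80), the locus LOC100101600 (r = 0.82, rho = 0.80) and SLC15A1, a peptide transporter (r = 0.77, rho = 0.70). Without the 2 farthest arrays their r was 0.76, 0.78 and 0.53. For C8A they were CCT3, a chaperonin subunit (r = 0.74, rho = 0.83), CYBA, a subunit of NADPH oxidase (r = 0.73, rho = 0.66), and HSD17B1, a steroid dehydrogenase (r = 0.68, rho = 0.81), with r of 0.79, 0.79 and 0.88 without them.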

How the data were processed

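Total RNA of 12 fetal rabbit ventricles was labelled with Cy3 and hybridised to 1-colour Agilent arrays, per the labels' protocols. The deposited values are log2 signals that the authors made with RMA, per the submitters' processing notes. Base 2 was inferred from the highest value, 15.83, and the 12 arrays differed by at most 0.13 at any rank, which takes out shifts shared by most probes. The background method and any detection flags or probe filters are not stated in the sources used. Values were used as deposited, without a filter.

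Symbols came for 1673 probes (3.84%) and were updated through RefSeq accessions, symbols or synonyms to 591 genes. The brightest probe of a gene, by the mean of all 12 arrays, stood for it. The paired comparison used limma 3.58.1 under R 4.3.3 (lmFit, eBayes, two-sided, pair as fixed block), with p-values adjusted by Benjamini and Hochberg over 43603 probes at 0.05. Alternatives changed the block, the variance prior, the scaling, the handling of dim values, the probes and the pairs used. The fit was tested on simulated data. The labels number the pairs, and deviations from the group means correlated at 0.129 to 0.254 within each of the 6. Of the other complement genes, the 4 brightest and the 4 with the largest differences were to be named, which takes all 4 measured, and the 3 most correlated genes per member. The members and lists were chosen with earlier results of these data known. The median standard error was 0.191 log2, and the number of arrays limits the precision. No probe or protein sequences were used here.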

Additional observations from a re-analysis of the deposited data

Results flagged for a closer look

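Each of 25 probes was screened in both groups of 6 for a heart far from the rest of its group (Dixon's test), and 10 of 50 groups had such a heart, where chance gives about 2.5. Genes named for their likeness to a member share its extreme arrays, so the chance number does not hold for them. CR1 read 5.68 log2 in control replicate 6, where the other control hearts spanned 2.11 to 3.33. C8B read 4.20 in control replicate 1, while the remaining controls spanned 2.56 to 3.04. The dimmest C9 probe read 3.38 in IUGR replicate 3 and 1.85 to 2.40 in the remaining IUGR hearts. Control replicate 6 also had VTN at 5.08 (remaining controls 2.06 to 3.08), ITIH3 at 7.12 (2.34 to 3.41) and KCNB2 at 5.13 (2.82 to 3.49), and SLC15A1 was low at 2.36 (3.42 to 3.98). Control replicate 1 had SFRP2 at 8.02 (remaining controls 4.07 to 5.03) and PON3 at 8.61 (5.53 to 6.65). HSD17B1 read 4.10 in IUGR replicate 2 (remaining IUGR hearts 2.40 to 2.95). The causes were not tested.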

How the results depend on the processing

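No probe passed the adjusted threshold, among the 7 or in the whole table, under any alternative run on the probes, and the fit with no replicate block also called 0, so the block changed no call. With the mean of all 3 probes C9 turned to -0.011. Leaving out 1 pair gave -0.12 to 0.032 for C8A, whose sign turned without pair 6. It gave -0.43 to -0.09 for C8B, 0.05 to 0.25 for C8G, 0.08 to 0.26 for C9 and -0.87 to -0.39 for CR1. Raising low values to the 25th percentile of their array gave -0.48 for CR1. The median difference of the 4 other complement genes was -0.0038 without pair 2 and 0.08 to 0.20 without any other pair. Without the probes below the median level only the brightest C9 probe and CLU were left of the 5 members and the 4 other complement genes, so no median of the 4 genes was taken there. The dim signal of 6 of the 7 probes limits what can be seen of them.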
